A study of Drosophila melanogaster with 3 samples.

Results

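The small subunit of the cytosolic ribosome is encoded in Drosophila melanogaster by 38 protein-coding genes, taken here as those whose Ensembl symbol is RpS and a number, together with sta, which encodes the RpSA protein. RpS21 is the gene also known as oho23B, and the gene named RpS28-like was left out. These are 38 of 13945 protein-coding genes on the 6 arms, and were examined for peaks of a GFP-tagged protein within 500 bp of a transcription start site. The data are peak lists from immunoprecipitation of chromatin by an antibody to GFP and sequencing of the recovered DNA (ChIP-seq). The material was whole embryos of pooled sex, aged 0 to 24 h, from a stable transgenic line, with chromatin sonicated to 200 to 800 bp. The labels disagree on what is tagged: the strain, source and antibody fields give CG18619 (the gene of REPTOR-BP), but the description gives REPTOR-eGFP and a note gives REPTOR with GFP at its C terminus. What drives the transgene was not stated in the labels used here. Biological replicates 1, 2 and 4 form 1 group with no second group to set against it. The replicates pool all embryonic cells, so a summit cannot be assigned to a cell type.

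Ribosomal protein genes are among the most transcribed genes of growing cells, and their products bind ribosomal RNA to form the subunit that decodes messenger RNA. Loss of a copy of many of them gives the Minute phenotype of slow development and thin bristles in flies. Their transcripts typically begin inside a pyrimidine stretch, and in animals the kinase complex TORC1 raises translation of such transcripts. REPTOR and its partner REPTOR-BP are both basic leucine zipper factors, and REPTOR becomes active when TORC1 is inhibited.

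The authors deposited an optimal list and, per replicate, a longer list of 30000 regions that mixes peaks with background. Lists were therefore compared at equal length, by rank of the deposited signal with rank 1 the strongest: each replicate list was ended at the length of the optimal list, and its regions up to there are called top regions. Signal is on each list's own scale and is not compared between lists. No read counts were given, so the depth is unknown, and the 95% Wilson intervals below cover the counting of genes only. An untagged control was not analysed here, so how much of these peaks an untagged line would show was not tested.

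A promoter peak was present at 30 of the 38 small subunit genes in the optimal list (78.9%, interval 63.7 to 88.9). Over all protein-coding genes the share was 20.6%. Among the top regions, 28 of 38 genes had a promoter region in replicate 1 (73.7%, against 20.0% of all genes), 32 in replicate 2 (84.2%, against 21.2%) and 28 in replicate 4 (73.7%, against 20.2%). The mean was 77.2% ± 6.08 (SD, n = 3), with all genes at 20.5% ± 0.624, so every replicate lay far above its own background. Of the 38 genes, 26 reached the top regions in all 3 replicates, 3 in 2 replicates, 4 in 1 and 5 in none. Counted instead over optimal summits with a top summit no more than 100 bp away in every replicate, the number was again 26 (68.4%), against 12.5% of all genes.

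**Figure D1:**
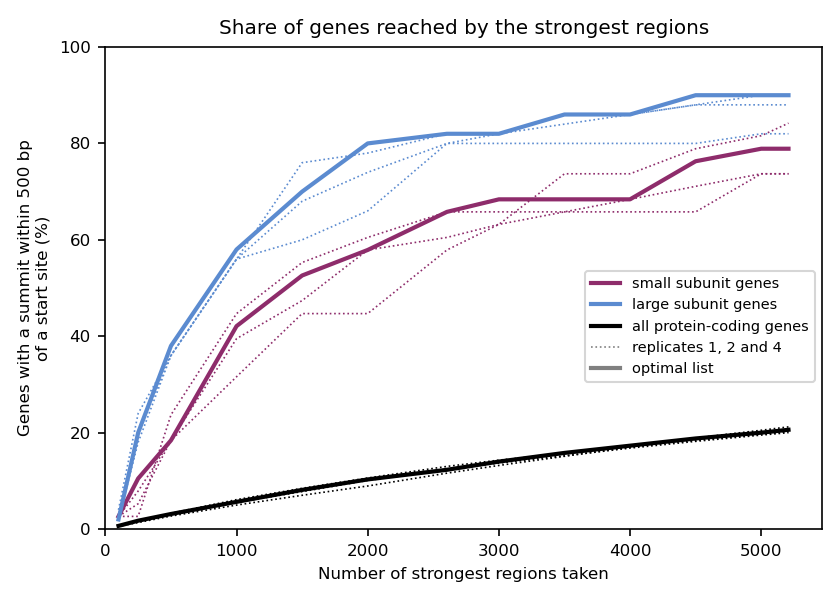
Share of genes whose start sites have a summit within 500 bp (vertical axis, percent) as more of the strongest regions are taken (horizontal axis, number of regions), for small subunit, large subunit and all protein-coding genes. Solid lines are the optimal list and dotted lines the 3 replicates; at its end the optimal list reaches 78.9%, 90% and 20.6%.

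The peaks sat high in the list. The median rank of the 30 member peaks was 916.5, with the best at 34 and the last at 4955, and their median signal was 478. All genes with a promoter peak together had a median rank of 2007 and a median signal of 298. The strongest 1000 peaks held 16 of the 30 members (53.3%), against 27.5% of all genes with a promoter peak. In the replicates the share within the strongest 1000 was 50.6% ± 11.9 (SD, n = 3), against 27.1% ± 3.39. The median rank of these 30 genes was 934, 1426.5 and 827 in replicates 1, 2 and 4 (mean 1062.5 ± 320, SD, n = 3). Replicate 2 gave the lowest standing of the 3 to 21 of the 30 genes and the highest to 7.

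**Figure D2:**
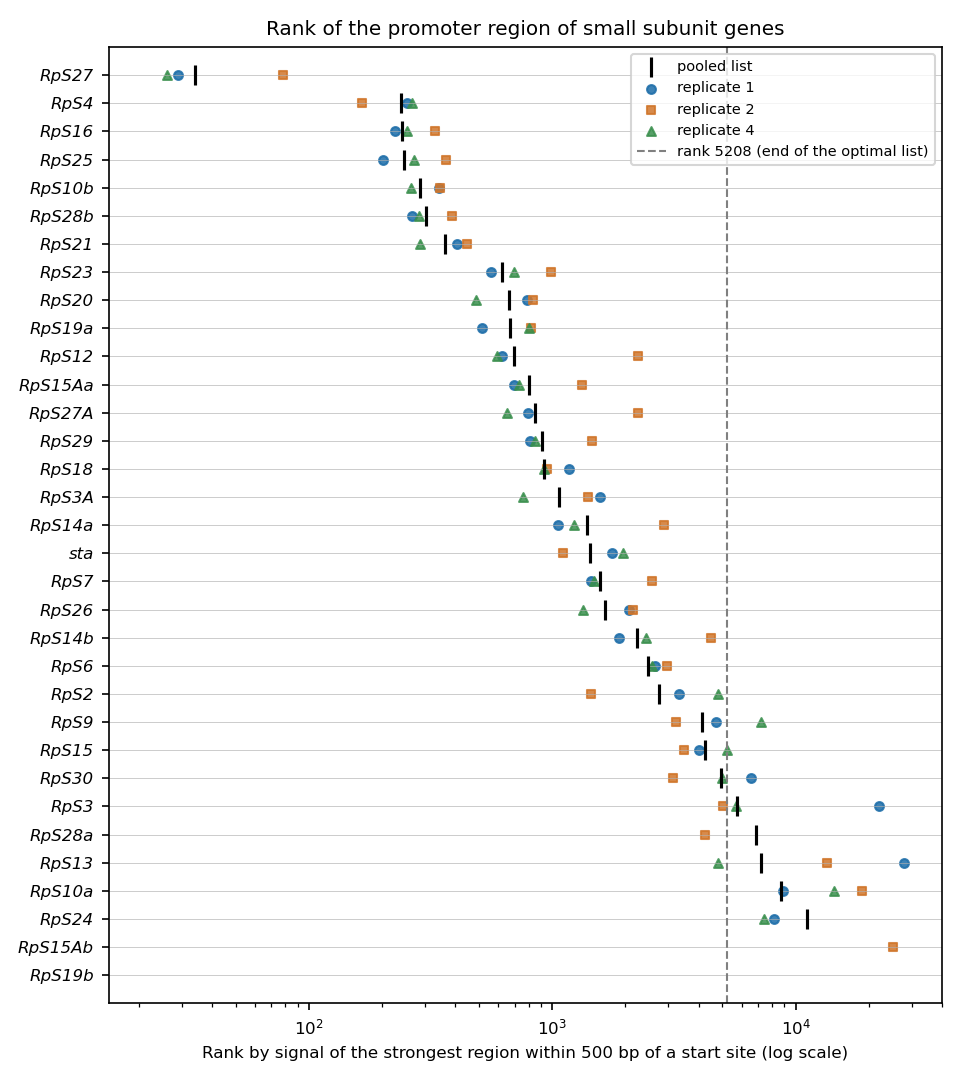
Rank by signal of the strongest region within 500 bp of a start site (log scale, smaller is stronger) for small subunit genes in the pooled list and in replicates 1, 2 and 4. The dashed line is the end of the optimal list, and RpS27 stands first in every list; a missing mark means no region in that list.

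The strongest member was RpS27, which encodes a zinc-binding protein of the subunit's platform. Its peak (chr3R:25247339-25247733, dm6) had a signal of 1952 and ranked 34, with ranks of 29, 78 and 26 in replicates 1, 2 and 4. The summit fell on the first base of the gene in the optimal list and lay within 5 bp downstream of it in every replicate, with signals of 673, 383 and 901. The bases around that start are shown because they carry the highest peak of the group (chr3R:25247485-25247604, minus strand, 90 bases before the start and 30 from it; all sequences are from the RefSeq genome, dm6). Capitals mark the 11 bases centred on the summit.
RpS27: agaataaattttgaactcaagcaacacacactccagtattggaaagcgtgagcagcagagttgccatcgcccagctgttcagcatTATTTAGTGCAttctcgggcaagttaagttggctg

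Next came RpS4, RpS16, RpS25 and RpS10b. RpS4, a protein of the body of the subunit, ranked 239 (signal 962; chr3L:13041574-13041958), with 254, 165 and 265 in replicates 1, 2 and 4. RpS16, whose tail reaches the tRNA in the peptidyl site, ranked 241 (signal 956), with 225, 331 and 254. RpS25, a head protein known in yeast and human cells for initiation at internal ribosome entry sites, ranked 245 (signal 947), with 202, 367 and 270. RpS10b, near the messenger RNA entry channel, ranked 287 (signal 879), with 344, 346 and 262. The order of these 4 genes changed from replicate to replicate, so they are not separated from each other.

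Summits lay close to the start site. Their median position was 28.5 bp upstream of the nearest start site, with quartiles of -44.5 and -9 bp, counted along the gene's strand so that negative is upstream. Of the 30 summits 25 were upstream, 3 downstream and 2 on the start base, and 24 were within 50 bp (80.0%). Among all genes with a promoter peak the median was -142 bp and 14.2% were within 50 bp. In the replicates 75.0%, 78.1% and 75.0% of member summits were within 50 bp (mean 76.0% ± 1.80, SD, n = 3), against 14.8%, 20.5% and 11.9% of all genes (15.7% ± 4.37). The median position was -23.5, -15.0 and -33.0 bp in replicates 1, 2 and 4 (mean -23.8 ± 9, SD, n = 3).

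A gene with several start sites can come close to a summit more easily, and 19 of the 30 genes had several. Among the 11 with 1 start site, 9 had the summit within 50 bp (81.8%), against 11.5% of the 1593 such genes in the genome with a promoter peak. When only the 5'-most start was used, 21 of 30 remained within 50 bp (70%, against 14.7%) and the median moved to -10 bp. RpS16 is a case of this kind: its summit was 55 bp upstream of an internal start site. The position repeated closely: the SD over the 3 replicates had a median of 12.4 bp over the 30 genes, from 1.73 bp at RpS10b to 96.2 bp at RpS14a. Farthest from a start in the optimal list were RpS6, at -266 bp, and RpS20, at -123 bp.

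**Figure D3:**
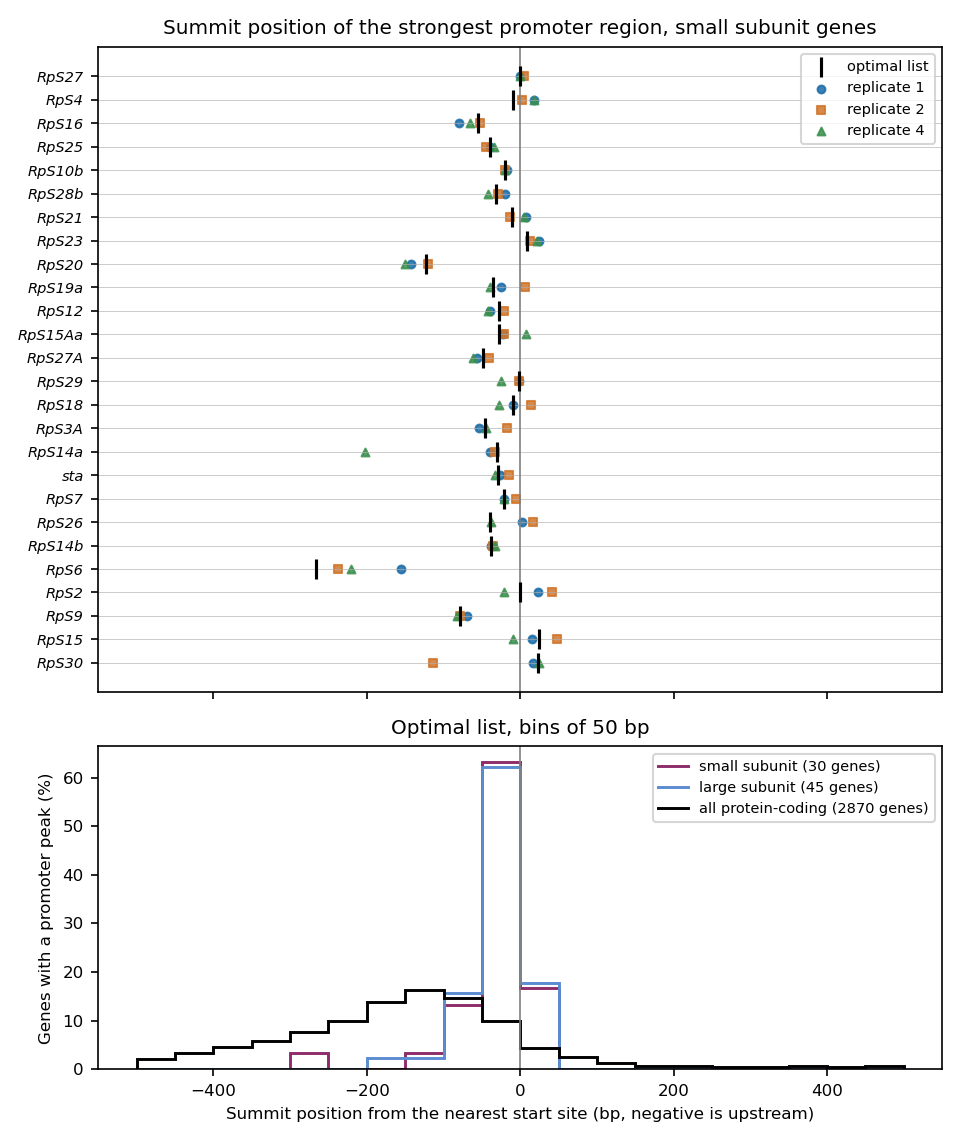
Summit position from the nearest start site (bp, negative is upstream) for small subunit genes with an optimal promoter peak, in the optimal list and 3 replicates (upper panel), and the percent of genes per 50 bp bin for small subunit, large subunit and all protein-coding genes (lower panel). Member summits cluster just upstream of 0, with a median of -28.5 bp, while those of all genes centre on -142 bp.

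By place in the subunit, the head, which contacts the tRNAs and part of the messenger RNA entry channel, had 13 of 18 genes with a peak, with a median rank of 672. The body and platform, which make up the rest of the subunit, had 17 of 20, with a median rank of 1452. Both groups spanned nearly the whole range, from 241 to 4233 in the head and from 34 to 4955 in the body and platform. The median position was -32.0 bp in the head and -28.0 bp in the body and platform.

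Among head genes, RpS28b, which lies near the messenger RNA exit, ranked 303. RpS20 ranked 665 and RpS19a, whose human counterpart is mutated in Diamond-Blackfan anaemia, at 672. RpS12 ranked 694 and is known in flies for its part in cell competition. In replicates 1, 2 and 4 it ranked 621, 2243 and 594, so replicate 2 stood apart from the other two. RpS27A, made as a fusion to ubiquitin, showed the same: 847 in the optimal list (signal 499), and 797, 2251 and 649 in the replicates, with signals of 170, 82.7 and 248. RpS29 and RpS18 ranked 908 and 925, and RpS15 came last in the head, at 4233.

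Among genes of the body and platform, RpS21 ranked 362 (signal 783; chr2L:2855925-2856209), with ranks of 405, 446 and 285 in replicates 1, 2 and 4. RpS23, at the decoding centre, ranked 620, and RpS15Aa 801. RpS3A, the only member on chromosome 4, ranked 1061. The gene sta, whose protein lies on the solvent side by the platform, ranked 1426 (signal 368), with 1760, 1103 and 1954. Here replicate 2 gave the highest standing, which it did at few members. RpS7, RpS26 and RpS2 ranked 1567, 1652 and 2752.

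RpS6, the substrate of S6 kinase in the TORC1 pathway, ranked 2473 (signal 262; chrX:7901369-7901824). Its replicate ranks, 2647, 2972 and 2570, were close together. The optimal summit lay 266 bp upstream of the nearest RpS6 start. In replicates 1, 2 and 4 the summit was nearer, at -156, -238 and -220 bp. The start of the divergent gene bys, a ribosome biogenesis factor, also lay within 500 bp of the optimal summit. The peak therefore cannot be given to either gene from its position.

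Weak member peaks were those at RpS9, RpS15 and RpS30, at ranks 4137, 4233 and 4955. None of these 3 had a top summit within 100 bp of the optimal one in all 3 replicates. RpS30, made as a fusion to a ubiquitin-like protein, ranked 6572, 3147 and 4998 in replicates 1, 2 and 4. Just inside the end of the optimal list, then, RpS30 had a signal of 154, and just outside it RpS3 had 137 in the pooled list, where the lowest optimal peak had 148.

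For 8 genes no promoter peak was in the optimal list. RpS3, which forms part of the messenger RNA entry channel, was nearest to it, at pooled rank 5766, and ranked 22061, 5032 and 5704 in replicates 1, 2 and 4. RpS13 was at pooled rank 7231, with 27795, 13489 and 4823. RpS24 was at pooled rank 11121, with 8148 in replicate 1, 7412 in replicate 4 and no region in replicate 2. In each of these genes the replicates lay far apart. RpS28a, at pooled rank 6878, had a promoter region in replicate 2 alone, at rank 4255. Its summit lay 484 bp downstream of the start and so beyond the 304 bp gene. Through that region RpS28a is counted among the 32 genes with a promoter region in replicate 2. RpS10a (pooled rank 8710) ranked 8904, 18781 and 14460. RpS15Ab had a region in replicate 2 alone, at rank 25168, and RpS19b had none in any list. Each list ends at a set number of regions, so a missing region does not show that the protein was absent.

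The 8 genes without a peak included 1 copy each of 5 of the 6 paralog pairs. In the pairs RpS10b and RpS10a, RpS15Aa and RpS15Ab, RpS19a and RpS19b, and RpS28b and RpS28a, the gene named first had an optimal promoter peak and the other had none. RpS19b is known in flies for expression in the germline. RpS10b ranked 344, 346 and 262 in replicates 1, 2 and 4, and RpS10a stood lower by 8560, 18435 and 14198 ranks (mean 13731 ± 4954, SD, n = 3). The difference had the same sign in 3 of 3 replicates, and the exact two-sided sign-flip permutation test gave p = 0.25, the smallest that 3 replicates allow. RpS15Aa ranked 698, 1326 and 731, RpS19a 516, 820 and 803, and RpS28b 264, 388 and 282, so these genes were within the strongest 1326 regions of every replicate. For their partners a difference could be taken only in replicate 2, at 23842 ranks for RpS15Ab and 3867 for RpS28a, and not at all for RpS19b. The RpS28a value rests on the summit 484 bp downstream of its start, beyond the gene.

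**Figure D4:**
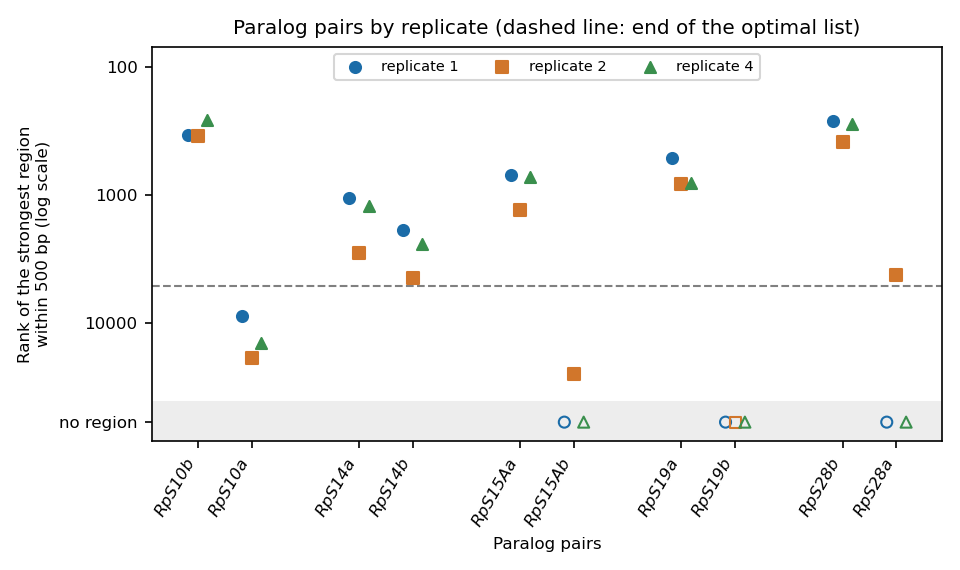
Rank of the strongest region within 500 bp of a start site (log scale, stronger at the top) in replicates 1, 2 and 4 for the paralog pairs named in the text. Open marks in the grey band are lists with no region, and the dashed line is the end of the optimal list; RpS14b is the only second member to pass it in all 3 replicates.

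RpS14a and RpS14b, which encode copies of a platform protein, are the exception. They lie in tandem on X with starts 1156 bp apart, and a separate peak lay near each start. These peaks were at rank 1395 (signal 373, chrX:7933633-7933793) and rank 2236 (signal 278, chrX:7934764-7934947). The start of the divergent gene Dhdds also lay within 500 bp of the RpS14a summit. That peak cannot be given to RpS14a or Dhdds from its position. In replicates 1, 2 and 4 RpS14a ranked 1057, 2868 and 1230 and RpS14b 1874, 4485 and 2436. RpS14b thus stood lower by 817, 1617 and 1206 ranks, in 3 of 3 replicates (mean 1213 ± 400, SD, n = 3, exact two-sided sign-flip permutation p = 0.25, the smallest possible). In replicate 4, however, the RpS14a rank came from a summit at -203 bp. The replicate 4 summit at 5 bp from the RpS14a start ranked 2425, close to the 2436 of RpS14b. The difference in that replicate therefore rests on the upstream summit. The copies share an unbroken run of 122 bp that begins 304 bp past the start of RpS14a and 317 bp past that of RpS14b. A read lying wholly within this run would match both copies. Their promoters, over the 250 bases before and 50 bases from the start, share no run longer than 11 bp. In the other pairs the longest shared promoter run was 8 to 10 bp.

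**Figure D5:**
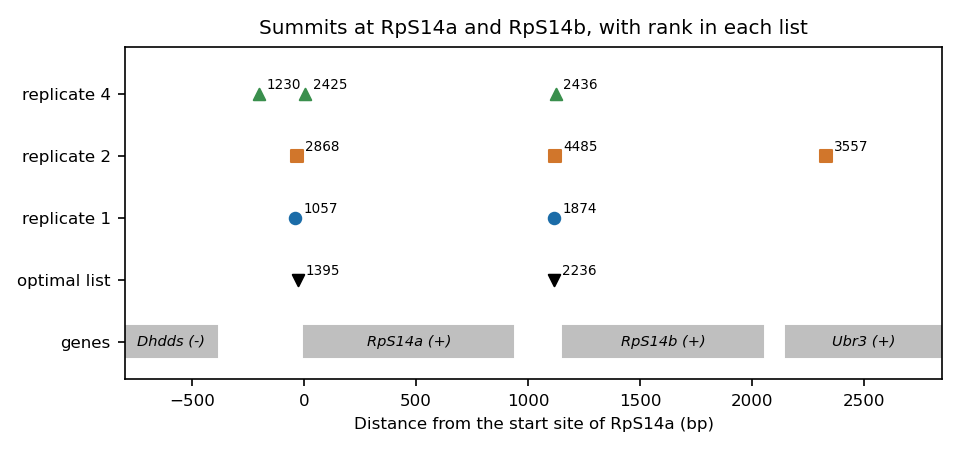
Summits of the optimal list and of the top regions of each replicate around RpS14a and RpS14b, by distance from the start of RpS14a (bp), with the rank of each in its list and genes as grey bars. Each list has a summit near 0 and near 1156 bp, and replicate 4 has a stronger summit at -203 bp.

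The start sites of RpS14a and RpS14b are shown because a separate peak lies near each. Each line gives 40 bases before the annotated start and 30 from it, and capitals mark CTTT on the gene's strand beginning within 10 bp of the start. RpS3, which just missed the optimal list, and RpS28a are added as genes without an optimal peak. Positions are chrX:7933702-7933771, plus strand, chrX:7934858-7934927, plus strand, chr3R:23358772-23358841, plus strand and chr3R:30022619-30022688, minus strand.
RpS14a: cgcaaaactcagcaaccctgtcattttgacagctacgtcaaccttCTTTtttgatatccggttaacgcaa
RpS14b: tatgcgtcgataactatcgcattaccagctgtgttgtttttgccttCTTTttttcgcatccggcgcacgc
RpS3: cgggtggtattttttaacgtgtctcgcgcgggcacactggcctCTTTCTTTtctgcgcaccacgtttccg
RpS28a: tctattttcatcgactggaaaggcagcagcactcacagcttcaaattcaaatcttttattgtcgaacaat

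The match was present at RpS14a, RpS14b and RpS3, so among these genes it did not separate genes with a peak from genes without. At RpS28a it was missing from the window. CTTT is the core of the TCT initiator of ribosomal protein genes. Within 10 bp of the start it was found in 23 of the 38 genes (60.5%, interval 44.7 to 74.4), against 11.0% of 13944 promoters, a window chosen after the data were seen. In a narrower window, beginning from 1 base before the start to the second base of the gene, it was in 2 of 38 (5.26%), against 1.28%.

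Motifs were searched on both strands, from 250 bases before to 50 bases from the start. The DRE, TATCGATA, an element common at housekeeping genes, was in 13 of 38 promoters (34.2%, interval 21.2 to 50.1), against 8.94% of 13944 promoters and 13 of 50 large subunit promoters (26.0%). Of those 13 genes 10 had a peak, whereas RpS13, RpS15Ab and RpS24 did not. In the window of 50 bases to each side of the summit it was in 5 of 30 (16.7%), against 3.69% at all promoter peaks. The sequences of 4 of the 10 genes with a DRE and a peak are shown with the DRE in capitals. They place it against the start and the summit. Each line gives 90 bases before the start and 30 from it (chr3R:11216258-11216377, minus strand; chrX:19597950-19598069, plus strand; chrX:13337609-13337728, minus strand; chr3L:13023262-13023381, plus strand).
RpS25: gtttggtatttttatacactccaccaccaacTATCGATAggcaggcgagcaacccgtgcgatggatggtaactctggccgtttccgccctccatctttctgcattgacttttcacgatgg
RpS10b: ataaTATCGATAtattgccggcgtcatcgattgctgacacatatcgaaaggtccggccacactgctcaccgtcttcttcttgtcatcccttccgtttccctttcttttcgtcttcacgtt
RpS15Aa: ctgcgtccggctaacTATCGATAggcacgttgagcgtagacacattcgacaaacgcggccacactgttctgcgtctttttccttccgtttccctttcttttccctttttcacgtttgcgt
RpS12: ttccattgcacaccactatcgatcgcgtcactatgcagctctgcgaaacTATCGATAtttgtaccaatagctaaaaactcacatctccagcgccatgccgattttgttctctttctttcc

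In these lines the DRE began 59, 86, 75 and 41 bases before the start of RpS25, RpS10b, RpS15Aa and RpS12. The centre of the element was 16, 53, 43 and 9 bp from the summit. The whole element was therefore within 50 bases of the summit in RpS12, RpS25 and RpS15Aa, but not in RpS10b.

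A second shared sequence was present in RpS28b, RpS21 and RpS19a, at ranks 303, 362 and 672. Their promoters hold the same run of 16 bases on the gene's strand, which at full length was in no other of the 13944 promoters on either strand. Its first 12 bases were in 17 promoters, among them those of RpS27, RpL27A and RpL28. The run was found by a search for runs of 12 bases held by several members, so it is a description and was not tested. The run is in capitals, with 60 bases before the start and 30 from it (chrX:9554563-9554652, plus strand; chr2L:2856051-2856140, plus strand; chrX:16637834-16637923, plus strand).
RpS28b: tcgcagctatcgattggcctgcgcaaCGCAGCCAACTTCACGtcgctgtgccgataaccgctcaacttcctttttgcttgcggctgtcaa
RpS21: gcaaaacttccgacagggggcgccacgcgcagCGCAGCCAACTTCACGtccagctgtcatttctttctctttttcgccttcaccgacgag
RpS19a: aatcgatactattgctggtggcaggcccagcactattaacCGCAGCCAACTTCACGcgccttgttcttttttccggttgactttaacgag

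The run ended 19, 13 and 5 bases before the canonical start in RpS28b, RpS21 and RpS19a. Summits lay 32, 52 and 35 bases before these starts, at the run in RpS28b and upstream of it in RpS21 and RpS19a. RpS21 has another start farther upstream, from which its summit lay at -11 bp. The run lies downstream of that start.

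Sites known for basic leucine zipper factors were searched in the same promoters. The palindrome TGACGTCA was in 0 of 38, against 0.423% of all promoters, and 0 of 38 allows a share of up to 7.89%, from 3 counts. Its shorter core TGACG, which the palindrome contains, was in 9 of 38 (23.7%), against 24.0%. From 100 bases before to 50 from the start its share was 18.4% (interval 9.22 to 33.4), against 15%. It was in 5 of 30 summit windows (16.7%, interval 7.34 to 33.6), against 8.08% at all promoter peaks. These intervals include the shares they are set against, so a higher share at members was not shown. TTGCGCAA and TGATGCAA, a C/EBP site and a C/EBP-ATF composite, were each in 0 of 38, against 0.380% and 0.782%. Motif 1 (GGTCACAC) was in 5 (13.2%, interval 5.75 to 27.3, against 7.54%). The forkhead site TGTTTAC was in 1 (2.63%, interval 0.466 to 13.5, against 9.32%). GAGAG was in 4 (10.5%, interval 4.17 to 24.1, against 30.2%) and TATAAA in 19 (50%, against 45.3%). In the narrower windows TATAAA was at 13.2% against 23.7% near the start and 10% against 22.6% at the summit. Its intervals in these 3 windows were 34.8 to 65.2, 5.75 to 27.3 and 3.46 to 25.6. Each included the share it was set against, so neither direction was shown for TATAAA. The GAGAG interval lay below the share of all promoters, also near the start (2.63%, interval 0.466 to 13.5, against 18.3%). At the summit it included that share (0.591 to 16.7, against 8.95%). Motif 1 was higher at the summit (10%, interval 3.46 to 25.6, against 2.20%), where large subunit genes had 11.1%. Near the start its interval, 2.72 to 20.8, included the 6.38% of all promoters. Intervals were not adjusted for the number of motifs. A match is a string of letters in the window and no measure of binding.

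Base composition at the member summits differed from the pattern of the other promoter peaks. In the same window at the summit, G and C made up a median of 49% (24.8% at RpS6 to 62.4%), against 44.1% in the flanks 500 bp away. At all genes with a promoter peak it was 33.7% at the summit and 47.0% in the flanks. In large subunit genes the medians were 45.5% and 45.0%. The median difference, summit minus flanks, was +4.7, +3.47 and +2.72 percentage points for members in replicates 1, 2 and 4 (mean 3.63 ± 1.00, SD, n = 3), against -12.9, -8.42 and -13.9 for all genes (mean -11.7 ± 2.90). Large subunit genes lay between, at -0.990, 1.49 and -1.73 points (mean -0.413 ± 1.68), so the departure from other promoter peaks was not limited to the small subunit. Members were higher and all genes lower than their flanks in 3 of 3 replicates. In the optimal list 12 of 30 members (40%) had less G and C than their flanks, against 48.9% of large subunit genes and 80.7% of all genes. For summits equally close to a start the difference was smaller: among the 347 other genes whose summit was within 50 bp of a start, neither small nor large subunit genes, the median difference was -4.46 points and 62.5% were lower than their flanks.

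Several members shared the peak with a neighbour. For 13 of the 30 (43.3%) the start site of another protein-coding gene also lay within 500 bp of the summit, against 56.6% of all genes with a promoter peak. In 12 of the 13 the neighbour was on the opposite strand, as at RpS27 with Nup37, a nuclear pore gene, RpS16 with CG4294, RpS25 with CG4820 and RpS19a with Rok. RpS27A shared its peak with Ip259 on the same strand. The shared peaks had a median rank of 847 and those at RpS starts alone 1061, with overlapping ranges (34 to 2485 and 239 to 4955). Their median positions from the small subunit gene's start were -35.0 and -21.0 bp. With the neighbour's start required within 250 bp, 5 of 30 were shared, against 44.5% of all genes, and within 1000 bp 19 of 30, against 62.4%, so the lower share of members was not present at that distance.

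Set beside the 50 large subunit genes, the small subunit genes had fewer promoter peaks in the optimal list (30 of 38 against 45 of 50, 90%, interval 78.6 to 95.7). Small minus large was -16.3, 2.21 and -14.3 percentage points in replicates 1, 2 and 4 (mean -9.47 ± 10.2, SD, n = 3; exact two-sided sign-flip permutation p = 0.5, with 0.25 the smallest possible). Among the 1000 strongest regions small subunit genes were lower in 3 of 3 replicates, at 39.5%, 31.6% and 44.7% against 56.0% in each for large subunit genes (mean difference -17.4 points). With shorter lists ended at the middle rank of the optimal list, the shares were 60.5%, 57.9% and 65.8% against 82.0%, 80.0% and 80.0%. The sign in replicate 2 thus depended on how many regions were taken. The median rank differed by 77.0, 745.5 and -25.5 (mean 266 ± 419, SD, n = 3; exact p = 0.5). Summits of small subunit genes were 5.5, 10 and 2 bp nearer to the downstream side (mean 5.83 ± 4.01, SD, n = 3; exact p = 0.25), in 3 of 3 replicates. In both groups 80.0% of optimal summits were within 50 bp of a start. With 3 replicates a difference between the subunits could not have passed a threshold of 0.05.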

How the data were processed

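Peak lists in the dm6 build were used as the authors deposited them. The signal column is the authors' value per region, with no stated normalization. Column 9 is the authors' −log10 q-value, whose lowest value among the optimal peaks was 2.90. Per the deposited inventories, replicate lists came from 1 alignment and 1 control, the pooled list from all 3 alignments, and the optimal list from these by irreproducible discovery rate (IDR). No peak caller, aligner or rate threshold is named there (not given in the sources used here). Lists in the dm3 build were not used.

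Summits were set against the start sites of protein-coding transcripts (Ensembl release 115, BDGP6) on 2L, 2R, 3L, 3R, 4 and X. The strongest region within 500 bp of any start site of a gene was taken, with the nearest start for its position. Replicates are separate biosamples of the same line. Sequences and motifs were read from the RefSeq genome of the same assembly, from 250 bases before to 50 bases from each canonical start, for 13944 genes, since 1 gene has no canonical transcript. Tests were exact sign-flip permutation tests over 3 replicates. Counts of members with a promoter peak, motifs and shared peaks are set beside the same share over all genes. Roles in head or body and platform are textbook assignments.

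The members, gene lists and motifs were chosen with earlier results of these data known. The rule for named genes gave full values to the 5 strongest members, all members without a peak, the paralog pairs, RpS6, RpS27A, sta and RpS21. Other members are named by rank. Of the 38 members 5 are counted but not reported by name here, among them 1 paralog pair, so the rule is met only for the rest. The counting was tested on simulated data. Alternatives were other promoter widths, start sites, list lengths, motif windows and replicates left out. Python 3.11.15, numpy 2.4.6, pandas 2.3.3, scipy 1.17.1 and matplotlib 3.10.9 were used.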

Additional observations from a re-analysis of the deposited data

How the results depend on the processing

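The count of 30 members with a promoter peak was 29 with promoters of 250 bp to each side (all genes 16.1%), 31 with 1000 bp (23.7%), 30 with the 5'-most start (18.3%) or with any overlap of the peak (22.2%), 26 with summits matched in all 3 replicates (12.5%) and 26 to 28 with a replicate left out. It was 16 in the 1000 strongest peaks (5.65%) and, chosen after the data were seen, 36 in the pooled 30000 regions (46.3%). The mean share in the replicates was 38.6% for the 1000 strongest regions, 61.4% for those above the middle rank of the optimal list and 93.0% for all 30000 (all genes 5.54%, 12.3% and 46.1%), and 73.7% to 78.9% with a replicate left out. The median position was -10 bp from the 5'-most start, -15.0 bp in replicate 2 alone and -28.2 to -19.2 bp with a replicate left out. The median rank was 880.5 to 1180 with a replicate left out. Shared peaks numbered 5 with the partner within 250 bp, 15 with genes of any kind and 19 within 1000 bp (all genes 44.5%, 60.1% and 62.4%). The DRE share was 16.7% in the summit windows, and the CTTT share 60.5% within 10 bp of the start. Small minus large subunit genes, a share difference of -9.47 points, was -17.4 points with the 1000 strongest regions, 0.316 points with all 30000, 1 reversal of direction, and -15.3 to -6.05 points with a replicate left out. The cause of these shifts was not tested. Depth is unknown, and ranks carry no error within a replicate.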

Other observations

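The 30 genes with a peak and the 8 without also differed in gene structure. None of the 30 lacked an intron, whereas 3 of the 8 did, namely RpS28a, RpS10a and RpS15Ab. Small nucleolar RNAs, which guide the modification of ribosomal RNA, lay inside 13 of the 30 genes and in none of the 8. The median gene length was 1546 bp with a peak and 848 bp without, and several start sites were annotated for 19 of 30 and 1 of 8. These counts come from the annotation, and 5 of the 8 are copies of a gene that has a peak. By arm, a peak was present at 9 of 9 members on X, 4 of 4 on 3L, 1 of 1 on 4, 4 of 5 on 2L, 5 of 7 on 2R and 7 of 12 on 3R. The share of all genes was not counted by arm, so these counts do not show that arms differ. Members without a peak on 3R included RpS10a, RpS19b and RpS28a, each a copy of a gene with a peak. No member had an optimal summit inside the gene farther than 500 bp from a start.

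A second optimal summit lay within 500 bp of a start at 4 of the 30 genes (13.3%, against 14.7% of all genes with a promoter peak). In the 3 named here they were at 9 and -200 bp in RpS23, -39 and -239 bp in RpS25, and -40 and -244 bp in RpS26. Their spacings of 209, 200 and 204 bp were at or just above 199 bp, the smallest spacing between any summits in each of the 5 lists used. Summits fell in the 5' untranslated region of 12 members, in an intron of 1 (RpS9) and outside protein-coding genes in 17.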
